A study of Ovis aries with 95 samples.

Results

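AHSG (fetuin A, carried on the array under an older locus name with the description fetuin) and SERPINA1 (alpha-1-antitrypsin) encode plasma proteins made mainly by the liver. The pair was chosen by its measured levels over the regions and ages of these arrays, so those levels are described here without a test. All gene probes whose gene name, gene identifier or accession gives AHSG or SERPINA1 were taken. This found 2 probes for each gene, 4 of the 15008 gene probes on the array. The pair makes 2 of the 14342 entries into which the probes were grouped. Of these entries 953 carry a gene symbol, and the rest go by another identifier of the array files. RNA came from untreated fetal sheep (Ovis aries) at 80, 100, 120, 130 and 145 d of gestation and from lambs 1 d after birth, from ewes without signs of labor. Cortex (a frontal section), brainstem, hippocampus and hypothalamus were dissected, and each RNA was labeled with Cy3 and hybridized to a one-colour ovine array. Every region and age had 4 arrays, except hippocampus at 100 d with 3, which gives 95 arrays in 24 groups. The methods give 4 fetuses for each age with all 4 regions taken, so arrays of different regions share animals, which the labels do not tie together. Each group also included 1 set of twins that the labels do not mark. Within a region arrays were treated as independent, and the paper's methods give a span of a few days for the 100 and 145 d groups.

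Fetuin A is a glycoprotein of the cystatin superfamily that is abundant in fetal plasma, keeps calcium phosphate in solution and binds growth factors of the transforming growth factor beta and bone morphogenetic protein families. Alpha-1-antitrypsin is a serpin, an inhibitor that traps its target protease, and its main target is neutrophil elastase. Both proteins are secreted into plasma and can reach the brain from it, but an array measures only RNA, which comes from cells in the tissue piece. In whole tissue, fewer cells of a type and less RNA per cell cannot be told apart.

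The sequences of the probes show what each measurement rests on. The 2 AHSG probes are 60 bases long, start at bases 1406 and 1446 of the transcript and share the 20 bases GTGCTCTTGCCAAGTTTATA. Over the 100 bases that they cover, 0 reading frames are free of a stop codon, and the probe nearer the end holds AATAAA, the letters of a common polyadenylation signal. The SERPINA1 probes start at bases 910 and 930 and share 40 bases, with 1 reading frame open over the 80 bases that they cover. They are shown whole, with the shared bases in capitals, because they overlap so far that they are close to a repeat of the same measurement:
SERPINA1 probe starting at base 910: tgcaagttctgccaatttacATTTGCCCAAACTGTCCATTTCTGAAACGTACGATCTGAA
SERPINA1 probe starting at base 930: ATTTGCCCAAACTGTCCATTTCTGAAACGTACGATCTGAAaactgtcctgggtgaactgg

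Levels are log2 values after background correction and quantile normalization over all arrays, with the probes of a gene averaged. The lowest signal of a probe that the scanner software called well above background, called the floor below, had a median of 6.48 over the arrays. Between 59.5 and 88.5% of gene probes were well above background on an array. Among region markers, OXT (oxytocin) had its highest median in hypothalamus (10.82) and 7.81 to 8.59 in the other regions, and CGA, a pituitary hormone subunit, reached 13.94 in hypothalamus against at most 6.67 elsewhere. A gene symbol could be given here to 1547 of the 15008 gene probes. These are called named probes, and other genes may be on the array without one. Of 12 cortex and hippocampus markers considered, 0 had a named probe. AHSG was well above background with both probes on 94 of 95 arrays, the exception being replicate 3 of hippocampus at 100 d. SERPINA1 was so with both probes on 9 arrays and with at least 1 probe on 29, 13 of the 16 arrays at 80 d and 16 of the 79 later arrays. No spot of either gene was saturated (0 of 95 arrays).

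At 80 d, 5 arrays stood apart from the others of their region, and these values come first because they touch most results below. They are replicate 1 of cortex, replicates 3 and 4 of brainstem, replicate 1 of hippocampus and replicate 4 of hypothalamus, picked after the values were seen for having the highest SERPINA1 of their region. In brainstem, SERPINA1 was 7.54 and 8.56 on replicates 1 and 2 and 11.39 and 10.90 on replicates 3 and 4. AHSG on the same arrays was 11.30 and 12.78 against 15.90 and 15.66. Both genes were thus high on the same 2 arrays and lower on the other 2.

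In hypothalamus, replicate 4 had 9.66 of SERPINA1 against 6.62 to 6.85 on the other 3 arrays, and 14.49 of AHSG against 8.11 to 9.65. In cortex, replicate 1 had 7.51 of SERPINA1 against 6.53 to 6.63, and 11.33 of AHSG against 7.0 to 7.92. In hippocampus, replicate 1 had 7.76 of SERPINA1 against 6.62 to 6.85, and 11.74 of AHSG against 7.91 to 9.49. In every region the array with the most SERPINA1 at 80 d was also the array with the most AHSG. Over the 16 arrays, with the mean of each region removed, the 2 genes had r = 0.92 (rho = 0.87), a description over arrays that share regions and, by the methods, come from 4 animals.

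ALB (albumin, the main liver plasma protein) was high on the same arrays. Values of this and other non-member genes side by side at 80 d keep spots with an outlier mark, so a few differ slightly from those behind the tests further on. In brainstem it was 8.32 and 8.50 on replicates 1 and 2 and 11.21 and 10.91 on replicates 3 and 4. In hypothalamus it was 9.70 on replicate 4 and 6.87 to 7.71 on the others. In cortex replicate 1 had 8.16 against 7.36 to 7.49, and in hippocampus replicate 1 had 8.01 against 6.62 to 7.47. ALB therefore had its highest 80 d value in each region on one of the 5 arrays, with r = 0.97 to SERPINA1 and 0.90 to AHSG over the 16 arrays.

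Not all plasma protein genes were high there. APOA1, the main protein of high density lipoprotein, was 13.33, 13.79, 13.86 and 13.04 on the brainstem arrays in order of replicate and had r = 0.08 to SERPINA1. SERPINC1 (antithrombin) lay between 7.78 and 7.88 on the same 4 arrays, with r = -0.06. CP (ceruloplasmin), near the floor, was 6.56, 6.58, 6.65 and 6.60 on these arrays, in the same order as SERPINA1, with r = 0.30. In the other regions at 80 d CP was not well above background. APOA1 and SERPINC1 thus did not follow SERPINA1 within regions at 80 d. C3 (complement) was 12.14 and 12.10 on brainstem replicates 1 and 2 and 11.04 and 11.34 on replicates 3 and 4. It had r = -0.67 to SERPINA1 and -0.53 to AHSG, although hippocampus replicate 1 had the highest C3 of its region (12.14). IGF2, a growth factor, was 11.80 and 11.73 against 11.01 and 10.71 on the same brainstem arrays, with r = -0.46 to SERPINA1.

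F2 (prothrombin) was 6.64 and 6.64 on brainstem replicates 1 and 2 and 7.57 and 7.19 on replicates 3 and 4, and SERPINA7 (thyroxine-binding globulin), near the floor, 6.32 and 6.44 against 6.93 and 6.79. Red cell genes split. AHSP, the alpha hemoglobin stabilizing protein, had r = 0.85 to SERPINA1 and was highest on hypothalamus replicate 4 (9.06 against 7.08 to 7.68). HBB (beta globin) had r = 0.24, and was 11.69 on that array against 10.95 to 12.12. Of the 24 red cell genes considered, 3 had a named probe. Their summed level at 80 d was 11.15 to 12.24 in brainstem and 11.12 to 12.22 in hypothalamus. These ranges lay below the 13.11 to 15.26 and 13.53 to 15.62 at 120 d. HBB, the brighter gene, had brainstem means of 11.67 at 80 d and 14.05 at 120 d. AHSP did not follow the sum, with means of 8.17 and 7.93 there and 7.74 and 7.82 in hypothalamus. On brainstem replicates 1 to 4 at 80 d AHSP was 7.38, 8.09, 8.76 and 8.44. TTR (transthyretin), made by liver and by choroid plexus, was 13.41 on cortex replicate 1 against 9.26 to 11.22, and 15.16 on hypothalamus replicate 4 against 10.50 to 12.35. In hippocampus, however, replicate 1 (14.16) lay between the others (11.06 to 15.90). In brainstem TTR was 18.32, 16.92, 16.86 and 18.32 in order of replicate. The value of replicate 3 is from an outlier-marked spot that the tests leave out, and replicates 1 and 4 hold the same normalized value. No order is read from them. The part of blood, choroid plexus or other tissue in the values of these 5 arrays was not tested.

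**Figure D1:**
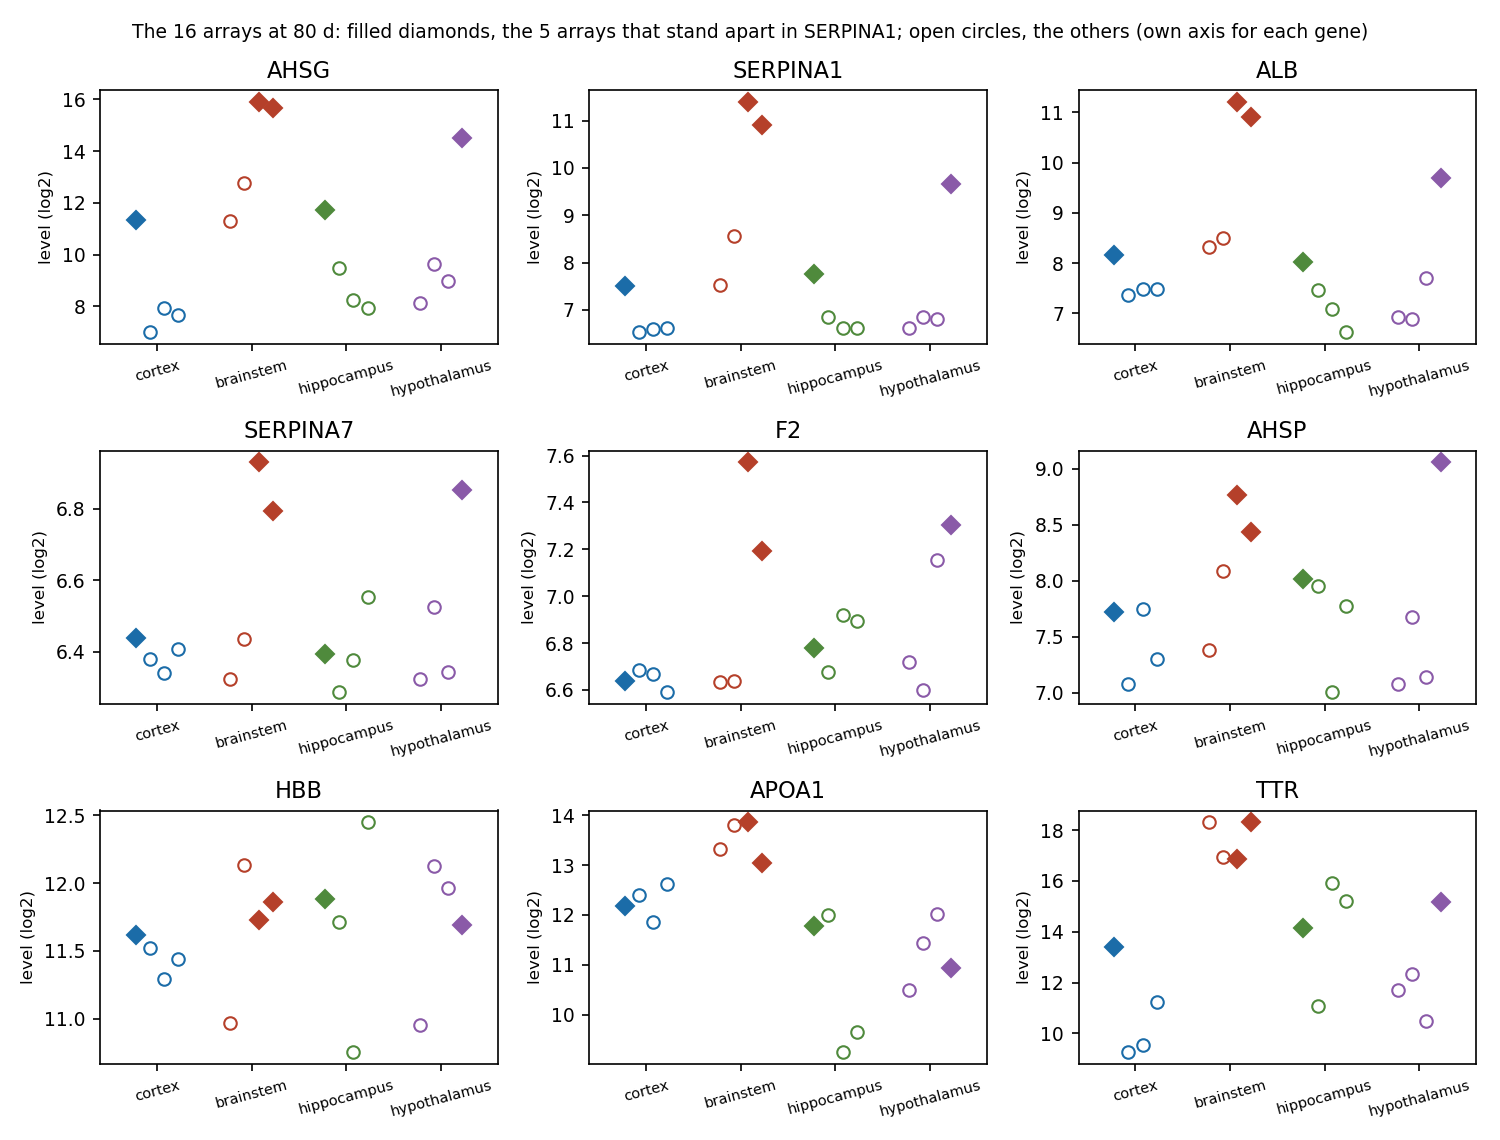
Levels (log2, vertical axis, a separate axis for each gene) of 9 genes on the 16 arrays at 80 d, by region. Filled diamonds are the 5 arrays that stood apart in SERPINA1, and they are also the highest in AHSG and ALB, while APOA1 (highest on brainstem replicate 3 only) and HBB (highest on cortex replicate 1 only) are not.

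The 5 arrays were not on a single slide. The brainstem arrays of replicates 1 and 2 shared the first slide of that region, and replicates 3 and 4 lay on the other 2 slides. At all 6 ages the lowest AHSG value of brainstem was on that first slide, by 3.74 on the log2 scale at 80 d (mean of the other slides minus the first) and by 0.27 to 1.57 at the later ages. For SERPINA1 the same difference was 3.10 at 80 d and -0.07 to 0.22 later. Slide and animal cannot be told apart for the brainstem arrays at 80 d. In cortex and hippocampus replicate 1 shared the first slide with replicate 2, with AHSG at 11.33 against 7.0 and 11.74 against 9.49. The other slides minus the first were there -1.38 and -2.53 for AHSG at 80 d. In hypothalamus replicate 4 was the only 80 d array on its slide.

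AHSG had a similar course in all 4 regions, with a low at 100 d and higher levels toward term. In cortex it was 11.33, 7.0, 7.92 and 7.66 at 80 d, and 6.97, 6.95, 6.94 and 6.82 at 100 d. At 145 d it was 9.17, 9.57, 9.48 and 10.52, and 1 d after birth 9.72, 10.42, 11.28 and 11.66. All 100 d arrays lay below all 80 d arrays and below all 145 d arrays, and close to the floor. The mean at 100 d was 6.92 ± 0.07 (SD, n = 4), the tightest AHSG group of cortex, against 8.48 ± 1.94 at 80 d and 9.68 ± 0.58 at 145 d.

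In brainstem AHSG was 10.75, 12.02, 12.64 and 10.88 at 100 d, beside the 80 d values above. At 120 d it was 14.31, 14.69, 14.60 and 14.44, and at 145 d 14.62, 14.15, 15.81 and 14.86. At 1 d after birth it was 14.64, 15.50, 15.51 and 16.04, the last being the highest value of the gene on any of the 95 arrays. The 100 d arrays overlapped the lower 80 d arrays and lay below all arrays of 120 d and later.

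In hippocampus AHSG was 6.76, 7.46 and 6.68 on the 3 arrays at 100 d, against 7.91 to 11.74 at 80 d. It was 10.46, 11.39, 12.41 and 10.83 at 145 d, and 13.40, 11.47, 10.44 and 13.23 at 1 d after birth. In hypothalamus it was 8.07, 7.74, 9.40 and 8.43 at 100 d, 15.19, 12.73, 13.37 and 12.78 at 145 d, and 12.52, 13.27, 13.85 and 13.62 after birth. Here too the 100 d arrays were the lowest, although in hypothalamus they overlapped those of 80 d.

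The mean at 100 d minus that at 80 d was, on the log2 scale, -1.56 in cortex (2.94-fold lower) and -1.89 in hypothalamus (3.71-fold), and larger in brainstem (-2.33, 5.05-fold) and hippocampus (-2.38, 5.20-fold). The arrays did not overlap in cortex and hippocampus, where 6.08 and 5.30% of all genes tested were lower at 100 d without overlap, and overlapped in brainstem and hypothalamus (13.7 and 1.64% of all genes). These differences lean on the arrays that stood apart. Without them the difference was -0.61 in cortex, -0.50 in hypothalamus, -0.46 in brainstem and -1.58 in hippocampus. Within slides the 100 d mean was below the 80 d mean on all 3 slides of cortex, brainstem and hypothalamus and on both slides of hippocampus that hold the 2 ages.

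From 100 to 145 d the mean of AHSG was higher by 5.10 in hypothalamus (34.4-fold), 4.30 in hippocampus (19.8-fold), 3.29 in brainstem (9.75-fold) and 2.76 in cortex (6.79-fold). In each region all 145 d arrays lay above all 100 d arrays. Of all genes tested, 6.52% were higher without overlap in this comparison in hypothalamus, 3.48% in hippocampus, 12.4% in brainstem and 14.9% in cortex. The difference was positive on all 3 slides of each region that hold both ages, with a lowest value of 2.20 in cortex and a highest of 7.29 in hypothalamus.

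Compared with 80 d, the level at 145 d was higher by 3.21 in hypothalamus, 1.93 in hippocampus, 1.20 in cortex and 0.95 in brainstem, with overlapping arrays in every region and pooled SDs of 2.18, 1.36, 1.43 and 1.66. Without the arrays that stood apart the differences were 4.61, 2.72, 2.16 and 2.82. Within slides the 145 d mean was higher on all 3 slides of cortex and both of hippocampus that hold the 2 ages, but lower on 2 of 3 slides of brainstem (-0.09 and -0.80) and on 1 of 3 of hypothalamus (-1.76). From 145 d to 1 d after birth they were -0.20, 0.86, 1.09 and 0.56, again with overlap. In cortex, brainstem and hippocampus the highest AHSG mean was that after birth, and in hypothalamus that at 145 d (13.52 ± 1.15, SD, n = 4). These are RNA levels of brain pieces up to 1 d after birth and do not bear on the protein in fetal plasma.

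The SD of AHSG at 80 d was 2.86 in hypothalamus, 2.25 in brainstem, 1.94 in cortex and 1.73 in hippocampus, the largest of the 6 ages in each region. This rested on the arrays that stood apart. Without them the 80 d SD was 0.77 in hypothalamus, 0.47 in cortex and 0.83 in hippocampus, below the largest at later ages (1.15, 0.87 and 1.51), and 1.05 over the 2 arrays left in brainstem.

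**Figure D2:**
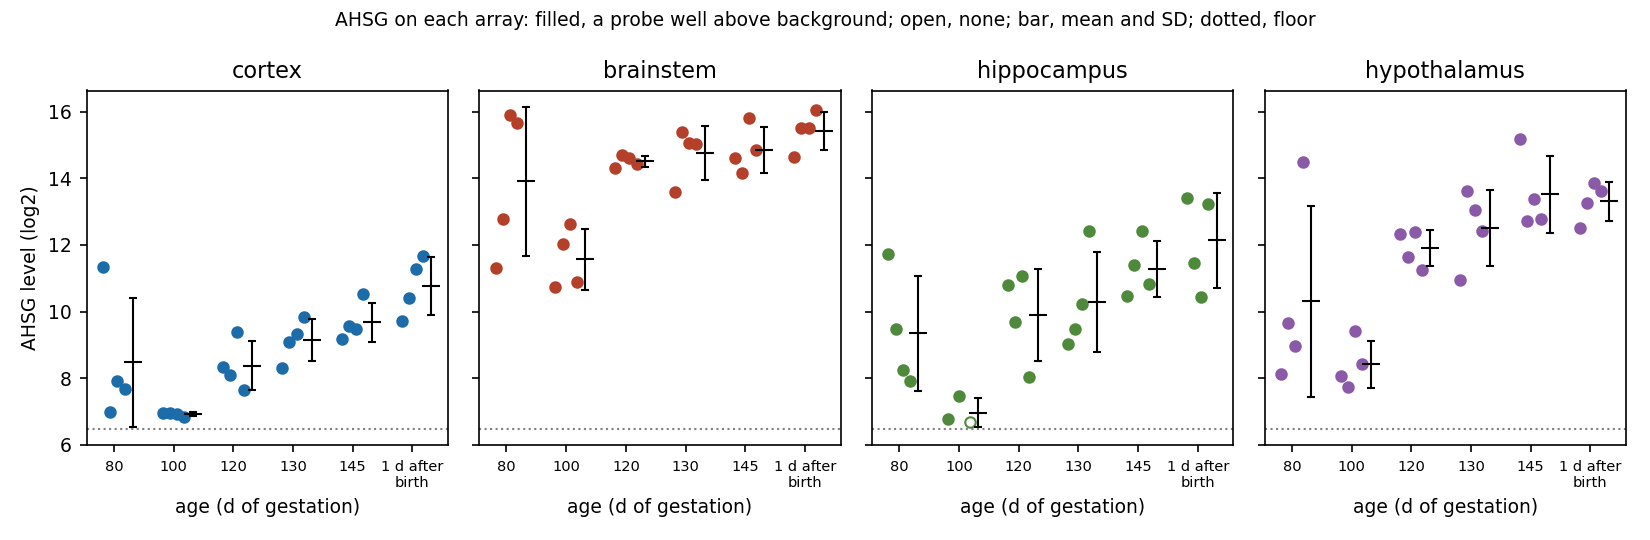
AHSG level (log2, vertical axis) on each array by age (d of gestation and 1 d after birth) in the 4 regions, with the mean and SD of each group and the median floor as a dotted line. The lowest mean of each region is that of 100 d, and the largest spread is that of 80 d, which in cortex, hippocampus and hypothalamus is not so without the arrays that stood apart (SD 0.47, 0.83 and 0.77).

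Brainstem had the highest AHSG mean at every age, followed by hypothalamus, hippocampus and cortex, and this order held at all 6 ages. At 100 d the brainstem mean was 11.57 ± 0.91 (SD, n = 4), that of hypothalamus 8.41 ± 0.72, that of hippocampus 6.97 ± 0.43 (n = 3) and that of cortex 6.92 ± 0.07. At 1 d after birth they were 15.42 ± 0.58, 13.31 ± 0.58, 12.14 ± 1.43 and 10.77 ± 0.87 (n = 4 each). The brainstem mean exceeded that of cortex by 4.65 to 6.14, or 25.1- to 70.4-fold, at the 6 ages. The methods give 3 slides for each region, so cortex and brainstem arrays were not on the same slides. Slide and region cannot be told apart in these differences.

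At 100 d, at 120 d and after birth all brainstem arrays lay above all arrays of the other regions, as did those of 2.34, 1.87 and 1.17% of all genes tested. At 130 and 145 d 1 array of another region exceeded the lowest brainstem array, and at 80 d 3 did. Brainstem and hypothalamus overlapped at 80, 130 and 145 d, and hippocampus and cortex, the neighbours at the lower end, overlapped at every age. Over the 24 groups in order of their means, only 1 of the 23 pairs of neighbours did not overlap, cortex at 120 d and the group below it.

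The 2 AHSG probes followed each other, with r = 0.97 over the 95 arrays and 0.86 to 0.99 within the regions. The probe starting at base 1406 was brighter on 89 of the 95 arrays, by a median of 0.35. The gap was over 1 on 14 arrays, 5 of hippocampus and 9 of hypothalamus, always with the same probe brighter. On hippocampus replicate 2 at 130 d they read 11.31 and 7.65, and on hippocampus replicate 2 after birth 13.26 and 9.68. On these arrays the AHSG level, a mean of both, is uncertain by that gap.

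SERPINA1 was measurable mainly at 80 d. In brainstem its mean was 9.60 ± 1.85 (SD, n = 4) at 80 d. On the 20 later brainstem arrays it was between 6.43 and 6.96, with a median of 6.51, and 7 of them had a probe well above background. All 4 arrays at 80 d lay above all 20 later arrays, as was so for 5.71% of all genes tested in brainstem. The mean was 8.14-fold lower at 100 d, where 2 of 4 arrays had 1 probe well above background and the others none, and at 145 d, where no array was well above background, at least 8.17-fold lower. Without replicates 3 and 4 the 80 d mean was 8.05, and the difference from 100 d was -1.47 in place of -3.02.

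In hypothalamus all 4 arrays at 80 d (6.62, 6.85, 6.80 and 9.66) also lay above the 20 later ones, whose highest value was 6.56. That was so for 0.518% of all genes there. Replicate 1 (6.62) had 0 probes well above background, so this lack of overlap is not read. In hippocampus 2 of the 4 arrays at 80 d lay above all later arrays, and in cortex 1 did. The mean at 80 d was 7.48 ± 1.46 in hypothalamus, 6.97 ± 0.54 in hippocampus and 6.82 ± 0.46 in cortex. Without the array that stood apart these means were 6.76, 6.70 and 6.59, close to the median floor. So outside brainstem the 80 d level of SERPINA1 rested mostly on 1 array of each region.

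From 80 to 145 d all SERPINA1 arrays were lower without overlap in cortex, brainstem and hypothalamus, where 19.0, 25.5 and 10.1% of all genes were, and overlapped in hippocampus (8.93%). In cortex 2 of 4 arrays at 80 d and 0 of 4 at 145 d had a probe well above background. In hypothalamus 3 of 4 and 1 of 4 did. The order of those values is not read in either region. At the later ages the group means lay between 6.42 and 6.62 and the arrays were mostly not well above background, so no order is read from them. Replicate 4 of brainstem after birth (6.96) was the highest later array. On all 3 slides of brainstem, SERPINA1 was lower at 100 and 145 d than at 80 d, with smallest differences of -1.47 and -1.57. The other regions had the same sign on all slides that hold both ages. Differences there went down to -0.04 (cortex, 100 minus 80 d) between values near the floor, so that sign is not read.

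**Figure D3:**
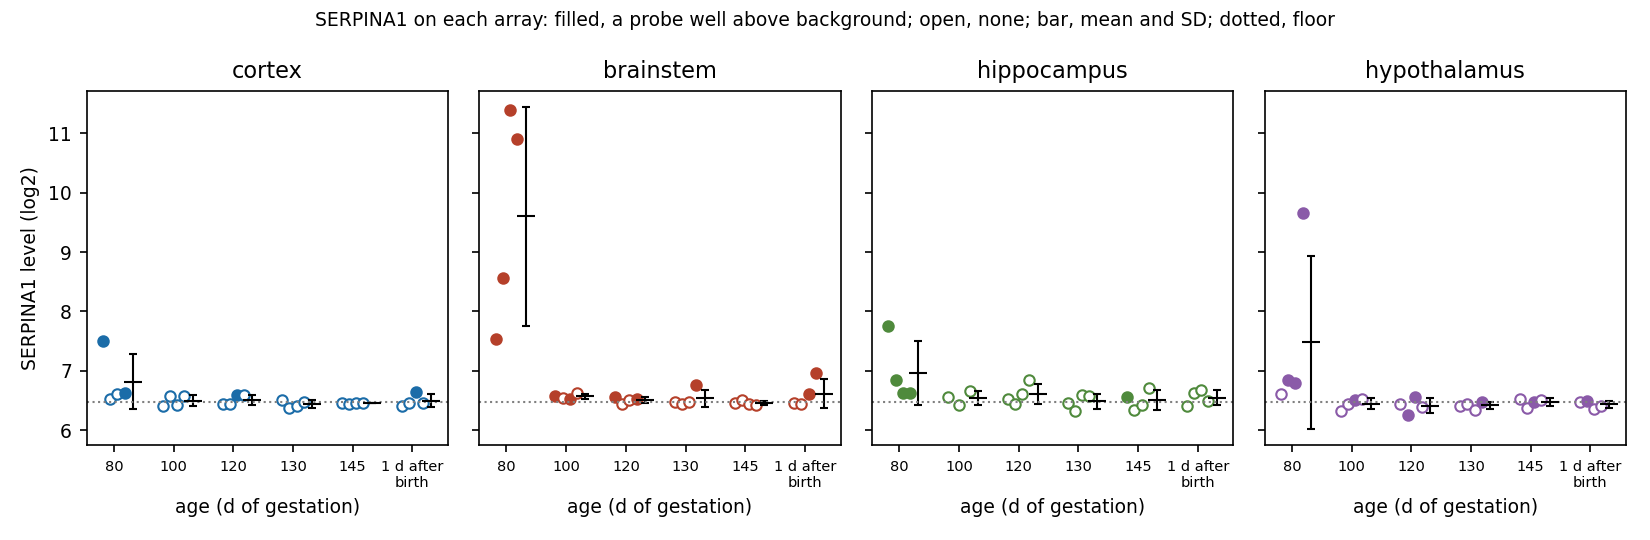
SERPINA1 level (log2, vertical axis) on each array by age in the 4 regions. Filled points have at least 1 probe well above background, bars are the mean and SD, and the dotted line is the median floor, near which almost all arrays after 80 d lie.

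The 2 SERPINA1 probes had r = 0.99 over the 16 arrays at 80 d and -0.29 over the 79 later arrays, where they lay near the floor. Their gap never exceeded 1 on any of the 95 arrays. The low-signal filter kept both in brainstem and hippocampus, only 1 in cortex and only 1 in hypothalamus, and both were averaged for the values above.

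The members differed in the genes whose course was most like theirs, among the other genes with a symbol that the filter kept in all regions. Over the 24 group means, AHSG was most like NPC2 (r = 0.90), a lysosomal cholesterol carrier, CP (0.89), RAB9A (0.86), a small GTPase of late endosomes, GJB1 (0.86), the connexin of myelinating cells, and CD9 (0.85), a tetraspanin. Over the arrays with region means removed, these were TF (transferrin, 0.67), LPAR1 (0.66), a lysophosphatidic acid receptor, CP (0.64), CRYAB (0.62), a small heat shock protein of oligodendrocytes and lens, and MT3 (0.62), a brain metallothionein. These values describe arrays that share regions and ages, and carry no p. Without the 5 arrays r over the arrays was 0.82 for TF, 0.83 for LPAR1, 0.79 for CP, 0.84 for CRYAB and 0.77 for MT3.

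GJB1 and CRYAB are the 2 of 14 oligodendrocyte markers with a named probe. Their summed level was 8.52 to 9.14 at 80 d and 11.68 to 12.42 at 145 d in cortex, 10.24 to 11.10 and 14.75 to 15.20 in brainstem, 9.63 to 10.42 and 14.33 to 14.95 in hippocampus, and 9.72 to 10.26 and 13.06 to 14.70 in hypothalamus. It was higher at 100 d than at 80 d in its median in every region, where AHSG was lower. Its part in the AHSG levels was not tested.

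SERPINA1 was over the group means most like ALB (r = 0.86), F2 (0.75), HSD11B2 (0.74), which inactivates cortisol, ETBR (0.70), an endothelin receptor under its file name, and TFAP2A (0.67), a transcription factor of neural crest and hindbrain. Over the arrays these were ALB (0.84), NEUROD1 (0.71), a neuronal transcription factor, F2 (0.69), TFAP2A (0.56) and ETBR (0.50). Much of this likeness rested on a few arrays. Without the 80 d brainstem group r over 23 groups was 0.11 for ALB, -0.02 for TFAP2A, 0.42 for ETBR and 0.52 for HSD11B2, and 0.76 for F2. Without the 5 arrays r over 90 arrays was 0.37 for ALB, 0.16 for F2, 0.40 for ETBR, 0.51 for NEUROD1 and 0.56 for TFAP2A.

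The 2 members were unlike each other over the whole series, with r = 0.16 over the group means (rho = -0.02) and 0.14 over the arrays (rho = -0.07). With the red cell genes, AHSG had r = 0.28 to HBB and 0.01 to AHSP over the group means, and SERPINA1 -0.34 and 0.49. HBB had its highest group mean in hypothalamus at 120 d (14.20), an age at which AHSG was already high and SERPINA1 near the floor.

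Choroid plexus, the epithelium that makes cerebrospinal fluid, can be carried with brainstem and hippocampus, and its main marker TTR was also highest in brainstem, with a median of 17.00 against 10.52 in cortex, 12.24 in hippocampus and 11.48 in hypothalamus. Within regions AHSG and TTR had r = 0.02 to 0.11, and SERPINA1 and TTR 0.08 to 0.33. Of the 21 markers considered, 7 had a named probe, and their summed level in brainstem was 17.49 to 18.69 at 80 d, 17.29 to 18.89 at 100 d and 18.03 to 18.90 at 145 d. PTGDS, a further marker, also had its highest median in brainstem (16.58, against 15.19 to 16.45 elsewhere), while AQP1, CLDN2 and CLDN1 had 6.53, 6.54 and 6.73 there. In brainstem SERPINA1 had r = 0.53 to CLDN1, 0.51 to CLDN2, 0.37 to IGF2, 0.28 to AQP1 and -0.80 to PTGDS. AHSG had 0.08, 0.13, -0.49, 0.26 and 0.24 in the same order. Within the regions AHSG and PTGDS had r = 0.24 to 0.59. The part of choroid plexus in the order of the regions was not tested.

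Other liver plasma protein genes were tested with limma in each region, to place the pair among genes of the same kind. Of 73 such genes considered, 14 had a named probe and 12 or 13 passed the filter. From 80 to 145 d, 6 of 13 passed in cortex (4 rose, 1 fell and 1, F2, was not well above background at either age), 7 of 12 in brainstem (4 rose, 3 fell), 2 of 12 in hippocampus (both rose) and 4 of 13 in hypothalamus (3 rose, 1 fell). Of all genes tested, 41.4, 37.5, 4.55 and 14.2% passed in the same order. The median difference of the list was 0.29, -0.04, 0.26 and 0.13, against -0.02, 0.01, 0.00 and -0.02 over all genes.

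TF, the iron carrier of plasma, which oligodendrocytes and choroid plexus also make, rose most. In cortex it was 9.33, 9.0, 9.03 and 8.41 at 80 d and 15.16, 15.09, 15.20 and 15.44 at 145 d, a rise of 6.28 ± 0.47 (SE, limma adjusted p = 9.03e-10). It rose by 3.73 ± 0.22 in brainstem (adjusted p = 3.37e-10), 6.80 ± 0.87 in hippocampus (6.32e-05) and 6.02 ± 0.34 in hypothalamus (3.67e-09). No TF spot was saturated. At 100 d, where AHSG was at its lowest, TF in cortex was 8.47 to 9.40, overlapping its 80 d values.

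CP, a copper-carrying ferroxidase, was the only other gene of the list to rise in all 4 regions. In brainstem it was 6.56, 6.58, 6.65 and 6.60 at 80 d and 7.56, 7.64, 7.36 and 7.39 at 145 d, a rise of 0.89 ± 0.12 (SE, limma adjusted p = 1.02e-05). It was not well above background on any 80 d array of the other regions, so by limma the rise was at least 1.13-fold in cortex (adjusted p = 0.00475, 2 of 4 arrays above background at 145 d), 1.90-fold in hippocampus (0.0447) and 1.49-fold in hypothalamus (0.000599). In hippocampus the difference was 0.97 (adjusted p = 0.102) without replicate 1 at 80 d, against 0.99 with it.

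Only in brainstem did ALB pass, where it was 9.73 ± 1.53 at 80 d and 7.96 ± 0.11 at 145 d (SD, n = 4) and fell by 1.77 ± 0.45 (SE, limma adjusted p = 0.00344). Without replicates 3 and 4 at 80 d the difference was -0.45 (adjusted p = 0.146) and did not pass. F2 fell in brainstem, at least 1.36-fold (adjusted p = 0.0112) and in hypothalamus, where it fell by 0.38 (0.0296). Without the arrays that stood apart it did not pass in brainstem (-0.13, adjusted p = 0.43) or hypothalamus (-0.26, 0.128). In cortex its fitted difference of -0.19 (0.0266) lies between readings not well above background on any array and is no measured fall.

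IGF2, a fetal growth factor, rose in cortex by 2.11 ± 0.45 (SE, limma adjusted p = 0.0007) and fell in brainstem by 1.27 ± 0.49 (0.0438). IGF1 rose by 0.59 ± 0.14 in brainstem (0.0024). From 145 d to 1 d after birth only IGF1 in brainstem passed, falling by 0.67 ± 0.14 (0.0112), 1 of 12 genes, where 4.91% of all genes passed. In cortex, hippocampus and hypothalamus limma called 0 genes of the list, with 2, 0 and 1 at an unadjusted p under 0.05, where 0.248, 0.00788 and 2.48% of all genes passed.

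**Figure D4:**
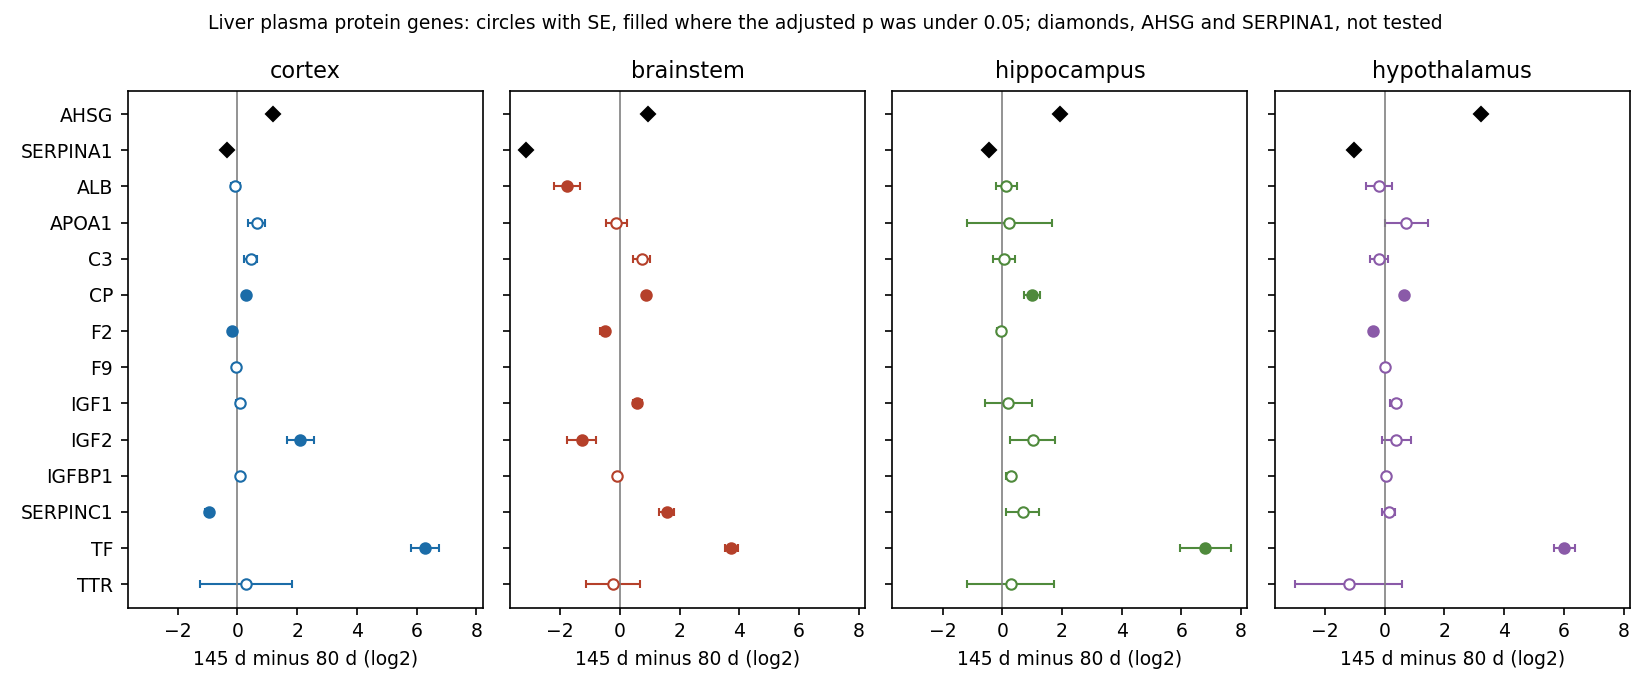
Difference from 80 to 145 d (log2, horizontal axis) of liver plasma protein genes that passed the filter and are reported by name, by region. Circles show the limma estimate with its SE, filled where the adjusted p was under 0.05, and diamonds the means of AHSG and SERPINA1, which were not tested. TF has the largest positive difference in every region, and SERPINA1 the largest negative one in brainstem.

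Among the relatives of the pair, 4 of 39 serpins and cystatin superfamily genes had a named probe, and 2 or 3 passed the filter in a region. SERPINC1 alone passed. In cortex it was 8.52, 8.54, 8.76 and 8.22 at 80 d and 7.50, 7.41, 7.68 and 7.61 at 145 d, a fall by 0.96 ± 0.13 (SE, limma adjusted p = 4.49e-06). In brainstem it was 7.78, 7.85, 7.82 and 7.88 at 80 d and 8.93, 9.36, 9.70 and 9.60 at 145 d, a rise of 1.57 ± 0.24 (3.00e-05). The cortex arrays did not overlap, as was so for 19.0% of all genes tested in that direction. SERPINF1 (pigment epithelium-derived factor) differed by 0.28 ± 0.21 in cortex and -0.12 ± 0.20 in brainstem and did not pass. After birth limma called 0 genes of this list in each region, with 1 at an unadjusted p under 0.05 in cortex, brainstem and hypothalamus. Of all genes, 0.248, 4.91, 0.00788 and 2.48% passed in cortex, brainstem, hippocampus and hypothalamus.

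A list of possible targets and partners of the pair, made of proteases, growth factors, receptors and other binding proteins, was also counted. Of its 35 genes 18 had a named probe. From 80 to 145 d 8 of 17 passed in cortex (5 rose, 2 fell, and F2 as above), 5 of 17 in brainstem (1 rose, 4 fell), 0 of 17 in hippocampus (1 at an unadjusted p under 0.05) and 3 of 16 in hypothalamus (1 rose, 2 fell), where 41.4, 37.5, 4.55 and 14.2% of all genes passed. Without the arrays that stood apart the counts were 8, 2, 0 and 1. In cortex BMP6 rose by 1.41 ± 0.20, PLAU (urokinase) by 1.13 ± 0.10 and BMP7 by 0.98 ± 0.09 (SE, limma adjusted p = 5.53e-06, 1.17e-08 and 2.26e-08). IGF1R, the receptor of IGF1, fell there by 0.75 ± 0.10 and TGFBR1 by 0.32 ± 0.06 (5.28e-06 and 0.000211).

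In brainstem MMP2, a matrix protease, fell by 0.76 ± 0.12 (limma adjusted p = 3.93e-05), TGFB2 by 0.60 ± 0.21 (0.0267), and SPP1 (osteopontin) rose by 0.35 ± 0.13 (0.0307). Without the 2 arrays that stood apart SPP1 did not pass, with the same difference of 0.35 (adjusted p = 0.123). In hypothalamus BMP6 rose by 0.47 ± 0.14 (limma adjusted p = 0.0272; 0.39 and 0.099 without replicate 4 at 80 d) and TGFB2 fell by 0.86 ± 0.25 (0.0252). TGFB2 also fell from 145 d to after birth in brainstem, by 0.87 ± 0.21 (0.0203), 1 of 17 genes there, where 4.91% of all genes passed.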

How the data were processed

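RNA from 95 samples was hybridized by the authors to one-colour ovine arrays. The deposited scanner files hold the spot intensity and background intensity made by Feature Extraction 10.1.1.1, and the authors' table holds their own log2 values of the same arrays, used as an alternative. Spot intensity was background corrected (normexp, offset 50), quantile normalized over all arrays and put on the log2 scale with limma 3.58.1 in R 4.3.3, leaving out control and outlier-marked spots. For tests, a probe had to reach, on 4 or more arrays of a region, 1.1 times the level that 95% of the 77 negative control spots lay under, and probes of a gene were averaged. AHSG and SERPINA1 were described from both probes without a filter. Each region was fitted by limma over 6 ages with 145 d minus 80 d and newborn minus 145 d as contrasts and Benjamini-Hochberg adjusted p under 0.05 over all its genes. Arrays were grouped by their labels. A fold against a group not well above background is the bound set by the floor of each array.

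Members and gene lists were chosen with earlier results of these data known. Named genes are the 5 genes most like each member by Pearson's r over group means and over arrays, the other member, HBB and AHSP, and in each region and comparison up to 3 genes of each list with the largest change in each direction among those that passed. Other genes (those on the arrays that stood apart, CP in cortex, SERPINF1 and the markers) were chosen after their values were seen. Alternatives were an offset of 16, the 75th percentile scaling of the processed signal, the authors' table, no filter, quantile normalization of each region alone, outlier-marked spots kept, a dim area of 1 brainstem array left out, a trended robust variance, single or brightest probes, the slide or replicate number as a block, leaving out each array in turn and, chosen after seeing the data, leaving out the 5 arrays. In simulated data with known changes of 1 log2 the test called 91% in cortex, 86% in brainstem, 77% in hypothalamus and 32% in hippocampus. Arrays, 3 or 4 a group, limit the precision. Where same-numbered arrays of different ages were compared, deviations from the group means correlated at 0.111 to 0.421 in cortex and at -0.611 to 0.467 in the other regions. Arrays of different numbers were not compared. In cortex replicate 1 lay on the first slide and replicate 4 on the last at every age. Slide and number cannot be told apart there, so no pairing is read from these values. Genes without a named probe were not analysed here, and 1 gene of the liver plasma protein list is counted but not reported here by name.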

Additional observations from a re-analysis of the deposited data

Results flagged for a closer look

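Chance alone marks about 1 in 20 groups as holding an array far from the rest, and 6 of the 112 groups looked at did. SERPINA1 had such an array in cortex at 80 d (7.51), in hypothalamus at 80 d (9.66) and in brainstem at 130 d (6.76), each the highest of its group. CP had a high array in cortex at 80 d (6.58 with the probes kept there, not well above background), IGF1 a low one in brainstem at 80 d (7.21) and TF a low one in brainstem at 145 d (17.14).

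For 3 genes the difference from 80 to 145 d ran in opposite directions in cortex and brainstem, and the difference between the regions was not tested. IGF2 differed by 2.11 in cortex and -1.27 in brainstem, SERPINC1 by -0.96 and 1.57, and TGFB1 by 0.37 and -0.42.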

How the results depend on the processing

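Of 172 alternative values of AHSG 166 moved by less than the spread between replicates, and of 172 of SERPINA1 147 did. With scaling of the scanner's own processed signal to its 75th percentile, which has no offset, AHSG from 100 to 145 d was 4.81 in cortex (3.28 with an offset of 16) and 6.29 in hippocampus, where 100 minus 80 d was -3.85. With the same scaling SERPINA1 was -1.30 (100 minus 80 d), -0.17 (145 minus 100 d), -1.47 (145 minus 80 d) and 0.16 (newborn minus 145 d) in cortex. In the same order it was -5.99, -0.71, -6.70 and 0.78 in brainstem and -3.40, 0.52, -2.88 and -0.33 in hypothalamus. In hippocampus it was -1.67 for 100 minus 80 d, -1.78 for 145 minus 80 d and -0.15 for newborn minus 145 d. The cause of these shifts was not tested.

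Without the arrays that stood apart, the brainstem differences of 100 and 145 d from 80 d were -0.46 and 2.82 for AHSG and -1.47 and -1.59 for SERPINA1. Leaving out single arrays kept the direction of AHSG in all comparisons but newborn minus 145 d in hypothalamus (-0.47 to 0.35). Brainstem SERPINA1 from 100 to 145 d, near the floor, was -0.11, -0.22 with an offset of 16 and 0.055 with the slide as a block. Newborn minus 145 d for SERPINA1 was -0.11 with the probe starting at base 930 and 0.20 with the other, also the brightest, in hippocampus, and 0.041 and -0.11 in hypothalamus.

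With the replicate number as a block (replicate block), the liver plasma protein genes called from 80 to 145 d in hippocampus went from 2 to 1, and no other count changed by over 1.5 times. That count was also 1 with the authors' table, with no filter and without replicate 1 at 80 d, and 1 to 2 with single arrays left out. It was 1 without any 1 array of 80 or 130 d, without replicates 1 or 2 of 100 d, replicate 3 of 120 d or replicates 2, 3 or 4 of 145 d. In hypothalamus single arrays gave 2 to 4, with 2 without replicate 3 at 80 d or replicate 1 or 3 at 145 d. From 145 d to birth the list had 0 to 1 in cortex (1 without newborn replicate 1) and 1 to 3 in brainstem, with 3 without newborn replicate 1, 2 without replicate 3 and 2 with the authors' table. For serpins and cystatins in brainstem this comparison gave 0 to 1, with 1 without newborn replicate 1 or 3 and 1 with the authors' table, and 145 minus 80 d gave 2 with no filter.

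No order is read among the later SERPINA1 groups, which lie near the floor. Groups of 3 or 4 arrays, and simulated recovery of 32% at 1 log2 in hippocampus, limit the calls.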
